A study of Homo sapiens with 12 samples.

Results

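The proteasome and immunoproteasome genes are 39 of the 60671 genes listed in an RNA-seq table of 12 libraries, and they were taken by gene name. They comprise 7 genes of the 20S alpha ring, 7 of the beta ring, 3 inducible catalytic subunits of the immunoproteasome, 17 subunits of the 19S cap, 4 activators and POMP, the maturation factor of the 20S core. Of these, 38 had a mean FPKM (fragment counts divided by gene length and by library size) of at least 1 over all libraries and were tested. PSMB8 did not reach that level.

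The proteasome is the main protease of the cytosol and nucleus. Stacked alpha and beta rings form the 20S core, and cleavage is done inside it by the beta subunits PSMB5, PSMB6 and PSMB7. The 19S cap recognises ubiquitin-tagged proteins, removes the ubiquitin and unfolds the chain with a ring of ATPases. In lymphoid cells and under interferon, PSMB8, PSMB9 and PSMB10 replace PSMB5, PSMB6 and PSMB7 in newly made cores, which changes the peptides that are offered to T cells.

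Libraries were labelled as Jurkat, a leukemia line of human T cells. The labels call the control cells WT, while the study's methods describe them as carrying a GFP vector. PTPN21 cells carried a lentiviral construct in which the SFFV promoter, a strong viral promoter, drives FLAG-tagged PTPN21, a tyrosine phosphatase. Each line was kept for 48 h with vincristine (VCR), which blocks microtubule assembly, or with its solvent DMSO. Control cells with DMSO are called NC+DMSO and with VCR NC+VCR, the overexpressing cells PTPN21+DMSO and PTPN21+VCR, and each group had 3 libraries. The VCR dose of these libraries and whether a line was 1 clone are not given in the sources used here. For these libraries the sources used here do not say whether the 3 replicates of a group came from separate cultures, so the spread behind the p-values may be partly technical.

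PTPN21 FPKM was 0.0212 to 0.0934 in NC+DMSO, 7.93 to 10.5 in PTPN21+DMSO, 0.160 to 0.569 in NC+VCR and 4.34 to 6.53 in PTPN21+VCR, as the labels say. The labelled cell type was not borne out by its markers. Of 11 T lineage genes, LCK, CD28 and CD247 were listed at 0 in all 12 libraries, 5 stayed under an FPKM of 1 in every library, and CD3D (61.8 to 139.7) and TAL1 (3.23 to 16.5) were the members of the list above 3 in every library. The list's summed FPKM was 76.4 to 110.3 in NC+DMSO, 130.5 to 162.3 in PTPN21+DMSO, 115.3 to 142.4 in NC+VCR and 112.3 to 119.7 in PTPN21+VCR. A list of 7 erythroid genes, chosen after their values were seen, was detected in every library, led by HBG2, a fetal globin, at 559.7 to 2985 FPKM. Its summed FPKM was 1359 to 2183 in NC+DMSO, 3181 to 4411 in PTPN21+DMSO, 922 to 951 in NC+VCR and 1127 to 1305 in PTPN21+VCR. The sum of EPCAM, KRT18, KRT8 and CDH1, an epithelial list, was 388 to 589 in NC+DMSO, 510 to 579 in PTPN21+DMSO, 1154 to 1359 in NC+VCR and 1203 to 1676 in PTPN21+VCR. Lists for B cells, fibroblasts and HLA class II summed to at most 1.84 FPKM in any library, and of 4 monocyte genes only LYZ exceeded 1 (9.08 to 17 FPKM). The erythroid and epithelial lists move with the groups compared below, and their part in the results was not tested. "Control" and "PTPN21" cells below therefore mean the libraries so labelled. In bulk RNA, fewer cells of a type and less RNA per cell cannot be told apart.

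Promoter sequences of 5 members are shown because these genes carry the results that follow. PSMB9 and PSMB10 are inducible catalytic subunits that were lower with VCR, PSME2 is an activator subunit that was higher with VCR in PTPN21 cells, POMP had the largest rise, and PSMA6 was lower with VCR in both lines. Each line holds the 250 bases before the RefSeq transcript start (GRCh38.p14), 5′ to 3′ on the gene's strand. Capitals mark matches to TGACNNNGC (core of the antioxidant response element, which NRF1 and NRF2 bind), to CCAAT, to the ETS core CCGGAAG, or to the core of the interferon-stimulated response element, GAAA repeated after a gap of 2 bases. Both strands were searched.
PSMB9, chr6:32853942-32854191, plus strand: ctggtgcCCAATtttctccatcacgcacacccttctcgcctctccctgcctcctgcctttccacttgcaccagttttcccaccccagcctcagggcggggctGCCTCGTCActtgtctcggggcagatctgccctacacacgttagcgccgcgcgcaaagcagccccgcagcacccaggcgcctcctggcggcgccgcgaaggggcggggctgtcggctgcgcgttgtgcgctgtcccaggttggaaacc
PSMB10, chr16:67936851-67937100, minus strand: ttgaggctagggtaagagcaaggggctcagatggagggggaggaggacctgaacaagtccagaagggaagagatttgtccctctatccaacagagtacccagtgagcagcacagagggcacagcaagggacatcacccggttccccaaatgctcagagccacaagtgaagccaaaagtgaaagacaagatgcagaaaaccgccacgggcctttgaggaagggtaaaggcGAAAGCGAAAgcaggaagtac
PSME2, chr14:24146611-24146860, minus strand: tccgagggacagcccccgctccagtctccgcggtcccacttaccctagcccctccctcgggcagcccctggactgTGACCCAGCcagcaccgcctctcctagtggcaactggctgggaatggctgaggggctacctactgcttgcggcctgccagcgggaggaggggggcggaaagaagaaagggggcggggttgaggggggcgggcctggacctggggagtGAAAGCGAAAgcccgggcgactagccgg
POMP, chr13:28658880-28659129, plus strand: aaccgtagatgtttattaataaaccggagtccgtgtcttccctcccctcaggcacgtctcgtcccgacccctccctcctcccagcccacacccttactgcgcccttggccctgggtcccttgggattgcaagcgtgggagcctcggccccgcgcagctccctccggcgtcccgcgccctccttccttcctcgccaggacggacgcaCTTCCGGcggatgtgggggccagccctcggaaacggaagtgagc
PSMA6, chr14:35292067-35292316, plus strand: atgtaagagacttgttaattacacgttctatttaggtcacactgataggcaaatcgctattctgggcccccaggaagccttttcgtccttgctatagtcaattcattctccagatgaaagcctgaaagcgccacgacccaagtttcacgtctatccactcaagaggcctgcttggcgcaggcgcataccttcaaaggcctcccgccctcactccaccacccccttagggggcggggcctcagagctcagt

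PSMB10 and PSME2 held the same 10 letters, GAAAGCGAAA, at 21 and 28 bases before the start. The POMP window held CTTCCGG, the reverse complement of CCGGAAG, and the PSMA6 window held no match to the searched letters. RefSeq promoters were found for 34 of the 39 members. The interferon element core was in 4 of 34 (11.8%), against 3.1% of all 27305 promoters. CCGGAAG was in 8 of 34 (23.5%) against 8.8%, TGACNNNGC in 7 of 34 (20.6%) against 11%, and CCAAT in 15 of 34 (44.1%) against 33%. These are descriptions of letters in windows of equal length, and binding was not measured.

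The members were abundant and unequal. Over 12 libraries the mean FPKM of a member ran from 0.00452 for PSMB8 to 428.8 for PSMA7, with a median of 81.1, and 33 of 39 lay above 20. Alpha ring genes spanned 37.7 (PSMA2) to 428.8, and the 19S base held the second most abundant member, PSMD4 (413.9), a ubiquitin receptor. PSMB1 (271.1), PSMD7 (239.3) and POMP (191.6) came next. In the plot of levels by library, the inducible subunits PSMB8, PSMB9 and PSMB10 sat at the low end together with PSMB2 and PSME4. The members' share of all FPKM in a library was 0.608% to 0.693% in NC+DMSO and 0.72% to 0.755% in PTPN21+DMSO. With VCR it was 0.627% to 0.682% in NC cells and 0.691% to 0.724% in PTPN21 cells. FPKM summed over all genes was 520098 to 580878 in NC+DMSO and 593909 to 628041 in PTPN21+DMSO. With VCR the sum was 589430 to 595061 in NC cells and 608949 to 629364 in PTPN21 cells. The part of these sums in the group differences was not tested. FPKM divides by gene length, so levels of different genes can be set side by side.

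**Figure D1:**
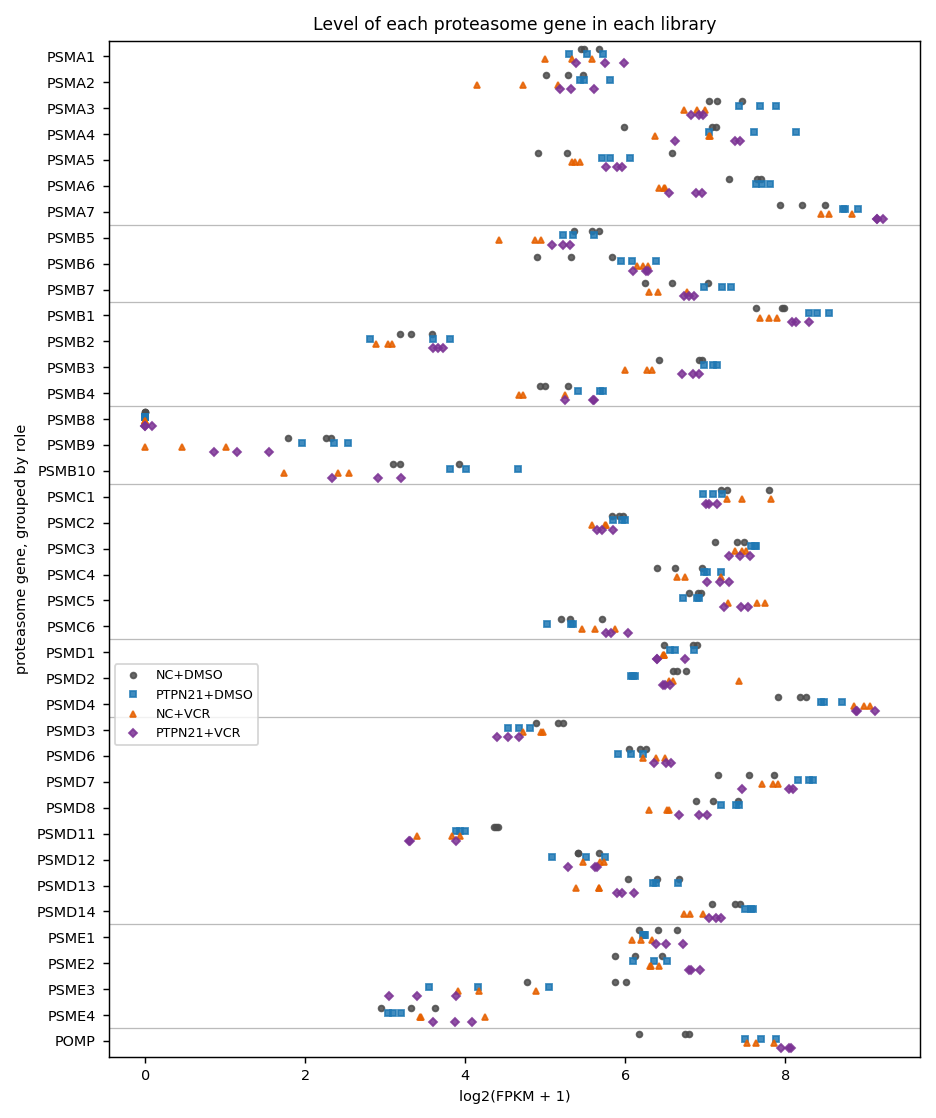
Level of each of the 39 proteasome genes in each library, on a horizontal axis of log2(FPKM + 1), with genes grouped by role between grey lines and symbols for the 4 groups (3 libraries each). PSMB8 lies at 0 in 11 of 12 libraries, while PSMA7 and PSMD4 lie at the right.

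The inducible subunits were the lowest of the catalytic genes in every group. PSMB8 was listed at 0 in 11 of 12 libraries and at 0.0542 in PTPN21+VCR replicate 3, so no ratio to PSMB5 could be formed. PSMB9 FPKM was 3.77, 2.44 and 3.99 in NC+DMSO, 4.78, 2.88 and 4.11 in PTPN21+DMSO, 1.01, 0 and 0.372 in NC+VCR and 1.21, 0.816 and 1.91 in PTPN21+VCR. PSMB10 FPKM was 14.2, 8.07 and 7.54 in NC+DMSO, 24.2, 15.1 and 13.0 in PTPN21+DMSO, 2.33, 4.32 and 4.83 in NC+VCR and 4.03, 8.17 and 6.52 in PTPN21+VCR. Within each line, every VCR library lay below every DMSO library for both genes, a separation not counted over all genes. PSMB8 and PSMB9 overlap at their ends on opposite strands of chromosome 6, in the HLA region. In GENCODE 29 on GRCh38, PSMB8 runs from 32840717 to 32844703 and PSMB9 from 32844136 to 32859585. How reads of that region were assigned, and the strand setting of the counting, are not given in the sources used here.

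PSMB9 fell by 1.63 on the log2(FPKM + 1) scale in NC+VCR against NC+DMSO (SE 0.297, limma adjusted p = 0.00156) and by 1.1 in PTPN21+VCR against PTPN21+DMSO (SE 0.297, limma adjusted p = 0.0163). PSMB10 fell by 1.17 in NC cells (SE 0.325, limma adjusted p = 0.0155) and by 1.35 in PTPN21 cells (SE 0.325, limma adjusted p = 0.00912). This scale adds 1 to each FPKM and so understates the change of low genes such as PSMB9. Both genes were lower in both lines and under every scaling tried. PSMB10 missed the threshold in NC cells after median ratio scaling and after quantile normalization. Over all alternatives, the call of PSMB9 held in 21 of 21 in NC cells and 17 of 21 in PTPN21 cells. That of PSMB10 held in 18 of 22 in NC cells and 22 of 22 in PTPN21 cells.

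Ratios within a library do not depend on how libraries were scaled. PSMB10 was 6.20% to 14.9% of PSMB7 in NC+DMSO and 2.77% to 5.55% in NC+VCR. In PTPN21 cells it was 8.84% to 15.2% with DMSO and 3.83% to 7.41% with VCR. The mean log2 ratio differed by -1.25 in NC cells and by -1.11 in PTPN21 cells, each with an exact two-sided permutation p = 0.1, the smallest that 3 libraries against 3 allow. PSMB9 was 4.74% to 6.13% of PSMB6 in PTPN21+DMSO and 1.21% to 2.48% in PTPN21+VCR, a difference of -1.71 (exact permutation p = 0.1). Over NC+VCR no log2 ratio of PSMB9 was formed because 1 library was at 0. Between the lines, the PSMB10 to PSMB7 ratios overlapped under DMSO (difference 0.27, exact permutation p = 0.6) and under VCR (0.41, exact permutation p = 0.4), and so did PSMB9 to PSMB6 under DMSO (-0.60, exact permutation p = 0.4). The last value was -1.07 without NC+DMSO replicate 2 (exact permutation p = 0.1) and -0.23 without NC+DMSO replicate 3 (exact permutation p = 0.8). These were 6 ratio comparisons. Adjusting over them could not bring any p below 0.1.

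**Figure D2:**
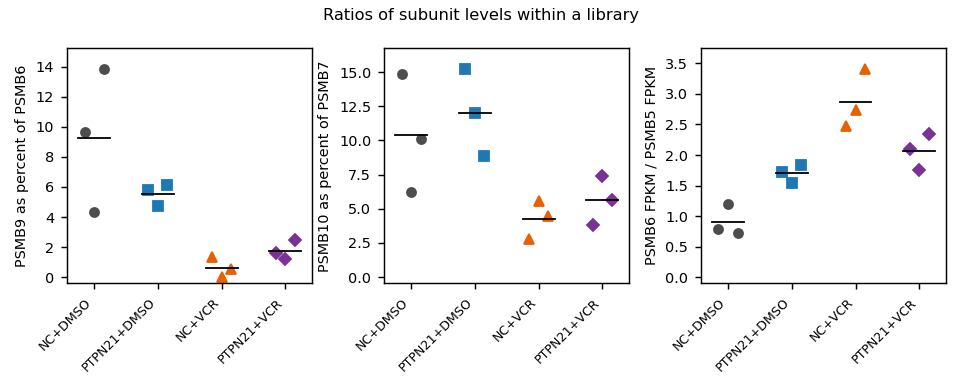
Ratios of subunit levels within each library, by group, with 1 symbol per library and a bar at the mean of 3 libraries. PSMB9 as percent of PSMB6 and PSMB10 as percent of PSMB7 were lower in all VCR libraries than in the DMSO libraries of the same line, and PSMB6 divided by PSMB5 was highest in NC+VCR.

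The constitutive catalytic subunits did not move together. PSMB5, the chymotrypsin-like subunit and main target of bortezomib, had FPKM of 49.8, 46.8 and 40.1 in NC+DMSO, 48.0, 39.6 and 36.4 in PTPN21+DMSO, 29.8, 28.2 and 20.4 in NC+VCR and 36.2, 38.6 and 32.9 in PTPN21+VCR. PSMB6, the caspase-like subunit, had 39, 56.3 and 28.8 in NC+DMSO, 82.9, 60.9 and 67.1 in PTPN21+DMSO, 73.7, 77.1 and 69.6 in NC+VCR and 75.9, 67.6 and 76.8 in PTPN21+VCR. PSMB7, the trypsin-like subunit, had 95.4, 130.2 and 74.8 in NC+DMSO, 158.8, 126 and 146.8 in PTPN21+DMSO, 84.1, 77.9 and 108.1 in NC+VCR and 105.2, 110.3 and 115.2 in PTPN21+VCR. Thus NC+VCR was the low group for PSMB5, and NC+DMSO was the low group for PSMB6.

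In NC cells PSMB5 fell by 0.79 with VCR (SE 0.165, limma adjusted p = 0.00334) while PSMB6 rose by 0.86 (SE 0.200, limma adjusted p = 0.00599). PSMB7 differed by -0.13 and did not pass (95% interval -0.53 to 0.27). In PTPN21 cells none of these passed, with differences of -0.19 for PSMB5, 0.07 for PSMB6 and -0.38 for PSMB7. The ratio of PSMB6 to PSMB5, a pair chosen after its values were seen and so not tested, was 0.718 to 1.20 in NC+DMSO, 1.54 to 1.84 in PTPN21+DMSO, 2.47 to 3.41 in NC+VCR and 1.75 to 2.34 in PTPN21+VCR.

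Between NC+VCR and NC+DMSO, 15 of the 38 members passed an adjusted p of 0.05, 5 higher and 10 lower. The background over all 11591 genes was 36.2% called, 7.91% higher and 28.3% lower, so the members' share was near that of all genes. The members' median difference was -0.19 on the log2 scale and that of all genes was -0.36. The split of members depended on scaling: it was 14 higher and 2 lower under median ratio scaling, which set the median of all genes at -0.04, 5 and 7 under quantile normalization, and 4 and 14 under TPM scaling. Over all genes, 21.9% of the calls were higher, and this became 55.8% and 52.5% with median ratio scaling and quantile normalization, respectively. POMP, PSMB6, PSMC5 and PSMD4 were higher and PSMA6 and PSMB9 were lower under all of these scalings, and the other 8 falls did not pass under median ratio scaling.

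POMP, which helps precursor 20S cores mature, had the largest rise. Its FPKM was 106.9, 110.5 and 71.3 in NC+DMSO, 235.1, 179.1 and 206.1 in PTPN21+DMSO, 182.9, 197.6 and 230.8 in NC+VCR and 246.4, 268.6 and 263.7 in PTPN21+VCR. All 3 NC+DMSO libraries lay below the other 9. In NC cells POMP was 2.13-fold higher with VCR (log2 difference 1.09, SE 0.166, limma adjusted p = 0.00049).

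Within the 19S base, PSMD4 had FPKM of 291, 306.1 and 240.1 in NC+DMSO, 419.5, 357.5 and 347.8 in PTPN21+DMSO, 531.4, 464.2 and 507.6 in NC+VCR and 474.2, 472.5 and 554.9 in PTPN21+VCR. It rose by 0.85 in NC cells (SE 0.121, limma adjusted p = 0.000334). PSMC5, an ATPase, had 122.5, 118.8 and 110.5 in NC+DMSO, 118.5, 104.4 and 120.7 in PTPN21+DMSO, 213.3, 154.4 and 199.5 in NC+VCR and 149.6, 173.8 and 185.2 in PTPN21+VCR. PSMC5 rose by 0.67 (SE 0.134, limma adjusted p = 0.00265). For both genes all VCR libraries lay above all DMSO libraries of either line, a separation not counted over all genes. The other 5 ATPases did not pass, with differences from -0.21 (PSMC2) to 0.24 (PSMC6), but PSMC3, PSMC4 and PSMC6 were called higher under median ratio scaling and PSMC2 lower under TPM scaling.

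In the lid, PSMD8, PSMD11, PSMD13 and PSMD14, the last of which is the deubiquitinase that frees ubiquitin from the substrate, were 4 of 8 lid genes that fell, by 0.68, 0.66, 0.79 and 0.46, and 0 of 8 rose, against 28.3% of all genes called lower and 7.91% higher. For these 4 genes, already picked as called lower, every NC+VCR library lay below every NC+DMSO library. The share of all genes separated in this way was not counted, so it adds nothing to the calls. The split of the lid depended on scaling. Under median ratio scaling none of the 4 passed and PSMD6, PSMD7 and PSMD12 were called higher.

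In the alpha ring, PSMA6 fell from 206.7, 198.9 and 156.6 FPKM in NC+DMSO to 89.4, 88.7 and 85.1 in NC+VCR (log2 difference -1.08, SE 0.134, limma adjusted p = 0.000133). PSMA7 rose by 0.40 with overlapping groups (limma adjusted p = 0.0454), a call that held in 6 of 22 alternatives. The other 5 alpha genes did not pass, although PSMA2 and PSMA3 were called lower under TPM scaling. PSMA6 has a processed relative, PSMA6P1, listed at 2.64% of its mean level, and reads of such copies can be split by counting. In the beta ring outside the catalytic genes, PSMB3 fell by 0.57 (limma adjusted p = 0.0117), and PSMB1, PSMB2 and PSMB4 did not pass.

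The activators are caps that open the 20S core without ubiquitin. PSME3, the nuclear PA28 gamma, fell by 1.22 in NC cells with a wide error (SE 0.415, limma adjusted p = 0.0372). Its FPKM was 57.4, 63.4 and 26.4 in NC+DMSO, 10.7, 31.9 and 16.9 in PTPN21+DMSO, 14.1, 28.6 and 17.1 in NC+VCR and 13.8, 9.55 and 7.23 in PTPN21+VCR, so NC+VCR overlapped NC+DMSO. PSME1 and PSME2, the interferon-inducible PA28 alpha and beta, and PSME4, which is PA200, did not pass in NC cells, with differences of -0.21, 0.20 and 0.41. Under median ratio scaling PSME2 and PSME4 were called higher, PSME4 also after quantile normalization.

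**Figure D3:**
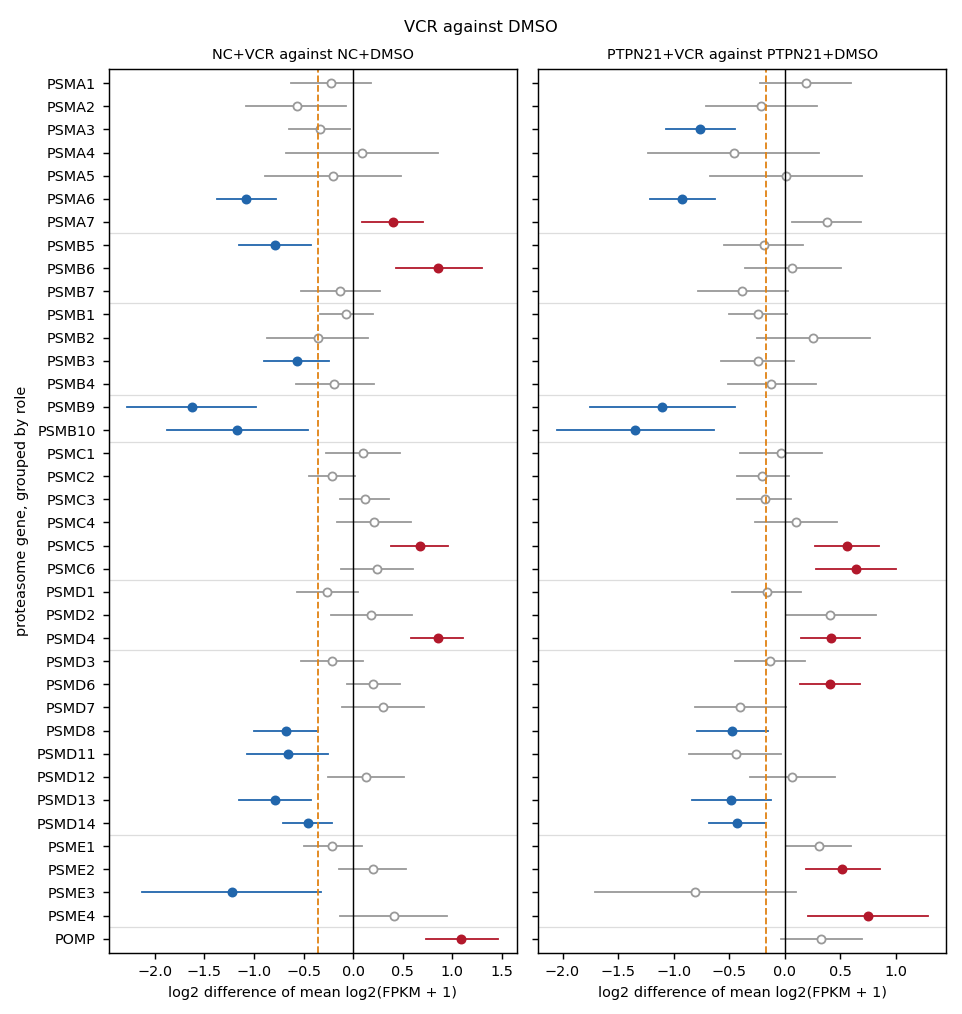
Log2 difference of mean log2(FPKM + 1) for the 38 tested members with its 95% interval, VCR against DMSO, in NC cells (left) and PTPN21 cells (right). Filled red points rose and filled blue points fell at a limma adjusted p under 0.05, open grey points did not pass, and the dashed line is the median of all genes tested (-0.36 and -0.17). PSMA6, PSMB9 and PSMB10 lie left and PSMC5 and PSMD4 right in both panels.

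Between PTPN21+VCR and PTPN21+DMSO, 13 of 38 members passed, 6 higher and 7 lower, against a background of 28.5% called (9.22% higher and 19.3% lower). The members' median was -0.15 and that of all genes -0.17. Median ratio scaling gave 9 higher and 4 lower, and quantile normalization 8 and 4. Over all genes 32.3% of calls were higher, against 52.3% and 51.6% under these scalings. With any 1 of the 3 PTPN21+DMSO libraries left out 7 members passed, and with any 1 of the 3 PTPN21+VCR libraries left out 8 passed.

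The rises were in the 19S base, 1 lid gene and the activators. PSMC6, an ATPase, had FPKM of 31.5, 39.7 and 39.1 in PTPN21+DMSO and 53.1, 64.4 and 55.7 in PTPN21+VCR, and it rose by 0.64 (SE 0.166, limma adjusted p = 0.0132). Its NC values, 51.4, 35.8 and 38.7 with DMSO and 43.1, 57.4 and 48.1 with VCR, overlapped. PSMC5 rose by 0.56 (SE 0.134, limma adjusted p = 0.00873), PSMD4 by 0.42 (limma adjusted p = 0.0229) and PSMD6 by 0.41 (limma adjusted p = 0.0262).

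PSME4 FPKM was 8.98, 6.70 and 11.3 in NC+DMSO, 7.54, 8.13 and 7.17 in PTPN21+DMSO, 18, 9.77 and 9.89 in NC+VCR and 13.7, 16.0 and 11.1 in PTPN21+VCR. It had the largest rise of the members in PTPN21 cells, 0.75 (SE 0.247, limma adjusted p = 0.0401), a call that held in 13 of 22 alternatives. PSME2 FPKM was 68.7, 87.3 and 57.5 in NC+DMSO, 91.1, 67.3 and 81.3 in PTPN21+DMSO, 78.8, 78.3 and 84.9 in NC+VCR and 111.8, 110.4 and 121.2 in PTPN21+VCR. The 3 PTPN21+VCR libraries lay above the other 9, and PSME2 rose by 0.52 over PTPN21+DMSO (SE 0.153, limma adjusted p = 0.0242). PSME1 FPKM was 84.2, 99.0 and 71.0 in NC+DMSO, 73.6, 74.0 and 75.0 in PTPN21+DMSO, 66.8, 72.1 and 79.4 in NC+VCR and 90.4, 104.5 and 82.6 in PTPN21+VCR. Its difference of 0.31 in PTPN21 cells did not pass (limma adjusted p = 0.114) but was called under median ratio scaling and after quantile normalization. That of PSME3, -0.81, did not pass (limma adjusted p = 0.169). PSMB10 and PSME2, which share GAAAGCGAAA in their promoter windows, moved in opposite directions in PTPN21 cells. The other members with the interferon element core, PSMA4 and PSMB4, were not called. The part of this element was not tested.

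The falls in PTPN21 cells were PSMB9 and PSMB10, PSMA3 and PSMA6 of the alpha ring, and the lid genes PSMD8, PSMD13 and PSMD14. PSMA6 went from 223.1, 208.3 and 198 FPKM with DMSO to 92.9, 116.7 and 123.8 with VCR (log2 difference -0.92, SE 0.134, limma adjusted p = 0.000436). PSMA3 fell by 0.76 (limma adjusted p = 0.00213). A gene on its opposite strand, PSMA3-AS1, was listed at 1.69 to 26.7 FPKM, and because the strand setting of the counting is not given in the sources used here, reads of the pair may not have been told apart. PSMD8, PSMD13 and PSMD14 fell by 0.47, 0.48 and 0.43, and none of these 3 passed under median ratio scaling or quantile normalization. The calls held in 13, 7 and 18 of 22 alternatives, in the same order.

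These VCR comparisons share no libraries. PSMC5 and PSMD4 were called higher in both, and PSMA6, PSMB9, PSMB10, PSMD8, PSMD13 and PSMD14 were called lower in both. These 8 genes were 53.3% of the 15 calls in NC cells and 61.5% of the 13 calls in PTPN21 cells, and 0 members were called in opposite directions. Over all genes the calls shared in direction were 52% of those in NC cells and 65.8% of those in PTPN21 cells, so the members' shares were near those of all genes. POMP, PSMB6 and PSMB5 were called in NC cells, while in PTPN21 cells POMP differed by 0.33 (95% interval -0.03 to 0.70, limma adjusted p = 0.154).

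**Figure D4:**
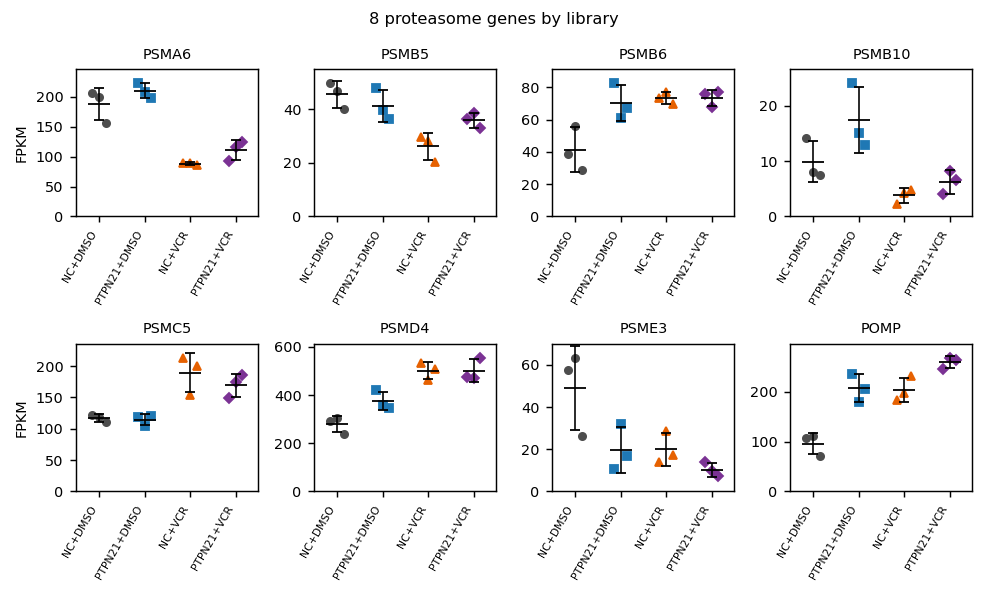
FPKM of 8 proteasome genes in each library, by group, with symbols for single libraries and bars for the mean and SD of 3 libraries, on axes that start at 0. PSMA6 and PSMB10 were lower and PSMC5 and PSMD4 higher with VCR in both lines, while POMP and PSMB6 were lowest in NC+DMSO.

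Whether the response to VCR differed between the lines was tested as an interaction. No member passed an adjusted p of 0.05 in limma, against 0.129% of all genes (3 genes higher and 12 lower, or 8 and 14 after TPM scaling). At an unadjusted p under 0.05 there were 6 members, and the share of all genes at that level was not counted. The 3 members with the lowest p were POMP, whose rise with VCR was 0.76 smaller in PTPN21 cells (difference -0.76, 95% interval -1.27 to -0.25, limma adjusted p = 0.213), PSMB6 (difference -0.79, 95% interval -1.41 to -0.18, limma adjusted p = 0.263) and PSME1 (difference 0.51, 95% interval 0.09 to 0.94, limma adjusted p = 0.276). None of these passed in any of the 21 alternatives. A call in 1 line and not in the other is therefore not shown to be a difference between lines.

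Between PTPN21+DMSO and NC+DMSO, 5 of 38 members passed, all of them higher, against a background of 6.34% called (2.65% higher and 3.69% lower). The members' median was 0.17 and that of all genes -0.14. Over all genes 41.8% of calls were higher, against 21% after TPM scaling, 73.4% after median ratio scaling and 54.5% after quantile normalization. POMP was 2.16-fold higher (log2 difference 1.11, SE 0.166, limma adjusted p = 0.00679), with every PTPN21+DMSO library above every NC+DMSO library. PSMB6 rose by 0.79 (SE 0.200, limma adjusted p = 0.0403), PSMA7 by 0.58 (limma adjusted p = 0.0371) and PSMB1, a beta ring gene that does not cleave, by 0.55 (limma adjusted p = 0.0267). PSMD7, a lid gene, had FPKM of 230.9, 141.9 and 186.7 in NC+DMSO, 323.7, 286.4 and 313.9 in PTPN21+DMSO, 229.1, 208.9 and 239.4 in NC+VCR and 272.2, 263.3 and 175.6 in PTPN21+VCR, and it rose by 0.75 under DMSO (SE 0.187, limma adjusted p = 0.0393). The groups did not overlap for these 5 genes, nor for another 6 that were higher with PTPN21, against 11.5% of all genes. They also did not overlap for PSMD2, PSMD3 and PSMD11, which were lower and did not pass, against 21.9% of all genes.

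The number of calls in this comparison was unstable. It was 8 without NC+DMSO replicate 2, 3 without PTPN21+DMSO replicate 2, 2 without NC+DMSO replicate 1, 1 without NC+DMSO replicate 3, PTPN21+DMSO replicate 1 or PTPN21+DMSO replicate 3, 2 without PTPN21+VCR replicate 1 or 2, 3 without PTPN21+VCR replicate 3, which enters through the shared estimate of the spread, and 0 when only the 6 libraries compared were fitted. TPM scaling gave 4 higher and 3 lower, the latter being PSMD2, PSMD3 and PSME3. POMP passed in 21 of 22 alternatives, PSMB1 in 14, and PSMA7, PSMB6 and PSMD7 in 9 each. Across the 38 members the difference went with the length of the longest transcript, the shorter genes being higher. Spearman's rho was -0.48 across genes, which are not independent replicates. After removal of trends with GC content and with total exon length, another measure of length, POMP and PSMB1 were called. The part of length in this result was otherwise not tested. PSMC1, whose processed relative PSMC1P1 was listed at 5.75% of its level, differed by -0.33 and did not pass.

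Between PTPN21+VCR and NC+VCR, 0 of 38 members passed the adjusted threshold in limma, against 1.82% of all genes. At an unadjusted p under 0.05 there were 16 members. The share of all genes at that level was not counted, so this number has no background. The median was 0.30 for members and 0.03 for all genes. Groups did not overlap for 15 members that were higher and 3 that were lower with PTPN21, against 12.3% and 10.2% of all genes. PSMB3 (FPKM 79.6, 62.6 and 76.4 in NC+VCR and 104.1, 114.3 and 120.7 in PTPN21+VCR) and PSMA7 (373.2, 349.4 and 456.3 in NC+VCR and 568.6, 565.9 and 599.5 in PTPN21+VCR) had the lowest p, with differences of 0.63 and 0.56 (limma adjusted p = 0.0562 and 0.0659), and they were called when the mean FPKM minimum was raised to 5. Both are named because of these values. Of the genes set out in full above, PSMB5 differed by 0.46 (limma adjusted p = 0.173), PSME2 by 0.50 (limma adjusted p = 0.116), POMP by 0.35 (limma adjusted p = 0.303), PSMB9 by 0.69 (limma adjusted p = 0.256) and PSMB10 by 0.58 (limma adjusted p = 0.393). PSME3 differed by -0.88 in the other direction, with groups that did not overlap (limma adjusted p = 0.304), and the other 9 lay between -0.15 and 0.34. The comparison under DMSO shares no library with this one, while each of them shares a group with each VCR comparison.

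**Figure D5:**
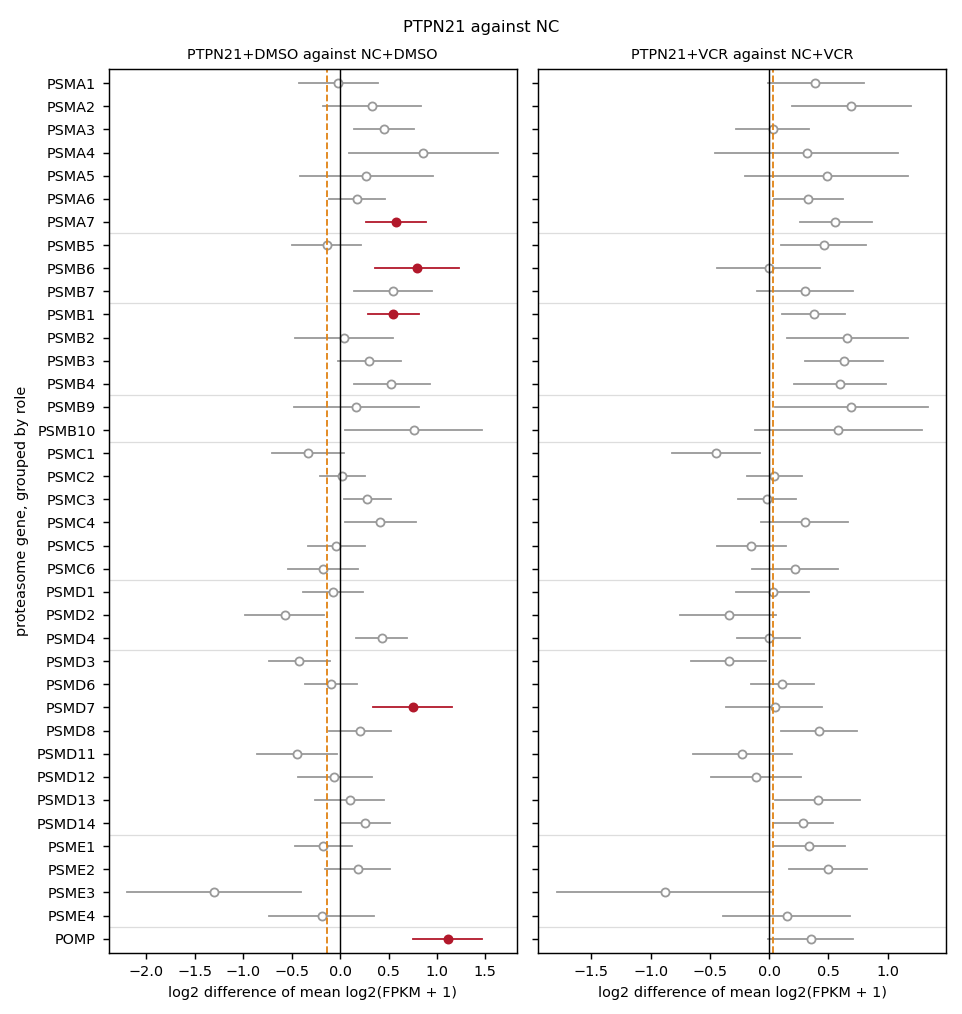
Log2 difference of mean log2(FPKM + 1) for the 38 tested members with its 95% interval, PTPN21 against NC, under DMSO (left) and VCR (right). Filled red points rose at a limma adjusted p under 0.05, open grey points did not pass, and the dashed line is the median of all genes tested (-0.14 and 0.03). The 5 called genes, POMP among them, are in the left panel only.

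Genes that work with the proteasome were counted in 6 lists, to be read against the shares of all genes called, 7.91% higher and 28.3% lower in NC cells and 9.22% higher and 19.3% lower in PTPN21 cells. Of 8 assembly chaperones, which bring the rings together, 1 rose and 2 fell in NC cells and 1 fell in PTPN21 cells. PSMG1, a chaperone of the alpha ring, fell by 1.17 in NC cells (limma adjusted p = 0.000142) and by 0.80 in PTPN21 cells (limma adjusted p = 0.00201), from 49.4 to 61.9 FPKM with DMSO to 20.5 to 27 with VCR in NC. PSMD9 rose by 0.61 and PSMG4 fell by 0.57 in NC cells, calls that held in 10 and 12 of 22 alternatives. Among 10 other subunits and bound cofactors, of which 8 were tested, PSMF1, an inhibitor of the 20S core, fell by 0.83 in NC cells and by 0.81 in PTPN21 cells (limma adjusted p = 0.00942 and 0.0132). TXNL1 rose by 0.66 in NC cells, and USP14, a deubiquitinase on the cap, and ADRM1, a ubiquitin receptor, rose by 0.78 and 0.48 in PTPN21 cells. The calls of TXNL1 and ADRM1 held in 9 of 22 alternatives each, and that of USP14 in 18.

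NFE2L1 encodes NRF1, the factor that raises proteasome gene transcription when proteasome activity drops. It differed by -0.27 in NC cells and by -0.26 in PTPN21 cells and did not pass (limma adjusted p = 0.501 and 0.544), and the NC value changed sign with scaling. The list of 10 genes for this route also holds NFE2L2, which encodes the related factor NRF2. On this list 2 genes rose in NC cells, NFE2L2 and UFD1, and 1 in PTPN21 cells, NFE2L2. NFE2L2 rose by 1.01 in NC cells and by 1.51 in PTPN21 cells (limma adjusted p = 0.0257 and 0.00389). Its FPKM was 15.3 to 33.4 in NC+DMSO, 38.3 to 73.4 in NC+VCR, 14.5 to 19 in PTPN21+DMSO and 40.7 to 70.8 in PTPN21+VCR. UFD1 rose by 0.36 in NC cells, a call that held in 5 of 22 alternatives.

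Of 5 ubiquitin genes and activating enzymes, 3 rose in NC cells and 1 in PTPN21 cells, and 0 fell. RPS27A, which encodes ubiquitin fused to a ribosomal protein, rose by 0.81 in NC cells and by 0.55 in PTPN21 cells with VCR (limma adjusted p = 0.00572 and 0.0427), and the latter call held in 12 of 22 alternatives. UBB, a polyubiquitin gene, rose by 0.62 in NC cells with VCR (limma adjusted p = 0.007) and was higher by 0.90 with PTPN21 under DMSO (limma adjusted p = 0.0101). No other gene of the 6 lists as counted here passed between PTPN21 and NC under DMSO or VCR. UBA1, the main ubiquitin-activating enzyme, rose by 0.48 in NC cells and held in 16 of 22 alternatives.

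Of 6 ubiquitin shuttle factors, 5 were tested and UBQLN4 fell by 0.83 in NC cells, a call that held in 13 of 22 alternatives. Of 7 interferon factors and partners of the immunoproteasome, 5 were tested, 2 fell in NC cells and 0 passed in PTPN21 cells. In PTPN21 cells 1 had an unadjusted p under 0.05 in limma, a level that was not counted over all genes. TAP2, a subunit of the transporter that loads peptides for presentation, fell by 2.12 in NC cells (limma adjusted p = 0.000347), from 15, 9.90 and 17.6 FPKM to 2.51, 2.27 and 2.41. In PTPN21 cells TAP2 had 6.34, 7.97 and 8.93 FPKM with DMSO and 4.54, 2.12 and 6.71 with VCR, and it did not pass. ERAP1, which trims peptides, fell by 1.27 in NC cells (limma adjusted p = 0.0168). TAP2 kept its call in all 22 alternatives and ERAP1 in 15 of 21.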

How the data were processed

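RNA of 12 libraries, 3 in each of 4 groups taken from the sample labels, was measured by RNA-seq. The authors had the reads processed by a commercial company and deposited FPKM per gene. The submitters' processing notes name fastp, Bowtie2 and the mouse build mm10, although the rows are human Ensembl genes. The counter, the annotation and the strand setting are not given in the sources used here. FPKM tables hold no depth, so the depth behind each value is unknown and no counting interval is given. The 39 members and the gene lists were chosen with earlier results of these data known, and some list genes are not reported here and are left out of the list counts.

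log2(FPKM + 1) was fitted with limma 3.58.1 in R 4.3.3, with an intensity trend and 1 model of the 4 group means, for the 11591 genes whose FPKM averaged 1 or more. P-values were two-sided and adjusted by Benjamini-Hochberg over these genes, with a threshold of 0.05. Pearson's r between replicates was 0.939 to 0.976. The fit was tested on simulated data. Ratios within a library were compared by exact permutation tests, without PSMB8 and without PSMB9 in NC+VCR, which held values of 0. Values by library were given for the catalytic subunits, activators, POMP and the 3 largest rises and falls past the threshold in each comparison; for the lists, up to 3 genes past the threshold in each VCR comparison and NFE2L1. Alternatives changed 1 setting at a time and included another pseudocount (0.1), other filters, other scalings, a replicate block and leaving out each library. A correction for GC content and length was added after seeing the data. Positions are from GENCODE 29 (GRCh38) and promoters from RefSeq (GRCh38.p14). Python 3.11.15, scipy 1.17.1 and matplotlib 3.10.9 were used.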

Additional observations from a re-analysis of the deposited data

How the results depend on the processing

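The number of members called stayed within 1.5 times under every alternative for NC+VCR against NC+DMSO (12 to 18, and 12 to 15 with 1 library left out, against 15). Which members were called, and the split into higher and lower, were less stable, although none of the 15 called members changed sign. Median ratio scaling kept 7 of the 15 calls and lost 8, with 14 higher and 2 lower instead of 5 and 10. For PTPN21+VCR against PTPN21+DMSO the number called was 8 instead of 13 without a filter and 7 to 14 with 1 library left out, being 7 or 8 when the library came from these groups. For PTPN21+DMSO against NC+DMSO, with 5 calls, it was 1 without a filter, 1 without the trend, 3 after quantile normalization, 0 with only the groups compared, 2 when corrected for GC content and length, and 1 to 8 with 1 library left out. For PTPN21+VCR against NC+VCR, with 0 calls, it was 2 at a mean FPKM of at least 5, 1 when corrected for GC content and length, and 0 to 2 with 1 library left out (1 without NC+DMSO replicate 2, 2 without NC+DMSO replicate 3 or NC+VCR replicate 3). The interaction gave 0 in every alternative. The cause of these shifts was not tested, beyond the fewer libraries or the other number of genes that a setting uses.

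With the replicate number as a block, 14, 10, 1, 0 and 0 members were called in the comparisons in the order above, the interaction last. Same-numbered libraries did not deviate together (r -0.145 to 0.0583 over 18 pairs, against -0.0978 to 0.133 over 36 pairs with other numbers). No pairing by number was seen, but these correlations cannot show that libraries shared no culture or batch.

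The PSMB10 to PSMB7 difference between PTPN21+DMSO and NC+DMSO ran from -0.06 (without NC+DMSO replicate 2) to 0.57, that of PSMB9 to PSMB6 from -1.07 to -0.23, and the PSMB10 to PSMB7 difference between PTPN21+VCR and NC+VCR from 0.13 to 0.66. The difference of NFE2L1 in NC cells was 0.10 under median ratio scaling, 0.04 after quantile normalization and -0.55 to 0.06 with 1 library left out. Of 1511 values of named genes under the alternatives, 1235 kept direction and side of the threshold, 266 lost their call, 7 gained one and 3, all NFE2L1, changed sign. Depth is unknown, so the precision of low genes such as PSMB9 cannot be given. No count test was run, because the table holds no counts.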
